A study of Mus musculus with 8 samples.

Results

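CC chemokines are small secreted proteins with a pair of adjacent cysteines near their start that draw leukocytes along a gradient through receptors of the Ccr family. Macrophages of the peritoneal cavity make several of them: ligands of Ccr2 call in monocytes, ligands of Ccr1 call in monocytes and other leukocytes, ligands of Ccr4 attract T cells, and ligands of Ccr3 attract eosinophils. AP-1, a dimer of Fos-family and Jun-family proteins, binds the promoters of some of these genes beside NF-kappaB, and Ccl17, Ccl22 and Ccl24 are also known as targets of interleukin 4 through STAT6. The 10 genes described here are Ccl2, Ccl7, Ccl8, Ccl3, Ccl4, Ccl6, Ccl9, Ccl17, Ccl22 and Ccl24, taken by name and found through the accession of their probe, out of 21150 genes named on the array. Each had 1 probe. All 10 passed the filter on dim probes, so they stand among 22910 features tested, and 7 of the 10 were well above background on all 8 arrays.

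The study set macrophages that lack a Fos-family protein against macrophages of floxed littermates. Single-colour Agilent arrays, which read 1 fluorescent label per array, were hybridised with RNA of 8 samples in 4 groups of 2. Fra-1 knockout mice were Fra-1lox/lox MxCre-/+, their controls wild-type Fra-1lox/lox. Fra-2 knockout mice were Fra-2lox/lox LysMCre-/+, their controls wild-type Fra-2lox/lox. Fra-1 is encoded by Fosl1 and Fra-2 by Fosl2. The Mx promoter that drives Cre in the Fra-1 line responds to interferon and is active in many cell types, and the labels used here name no inducing agent. LysM Cre is active in myeloid cells. All mice were 8 weeks old, male or female, and on a 129/C57Bl6 background. The controls carry the same floxed alleles and no Cre. Lavage cells were plated overnight and only those that stuck to the dish were used. The 4 samples of the Fra-1 line are labelled as thioglycollate elicited and the 4 of the Fra-2 line are not, so mouse line and elicitation cannot be told apart. In such bulk RNA, fewer cells of a type and less RNA per cell cannot be told apart either.

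Levels are given as log2 of an array's signal over the 75th percentile of that array, so 0 is the level below which 75% of the probes lay. They can be set against each other between arrays for 1 gene but not between genes. The 75th percentile of the signal ran from 315 to 470 over the arrays, and 47.7% to 57.6% of the spots were well above background, the lowest share on labelled Fra-2 knockout 1. Correlations were 0.983 to 0.992 within groups and 0.910 to 0.922 between the lines. Fosl1 was −4.78 and −4.18 on the Fra-1 knockout arrays, not well above background on either, against −2.73 and −1.97 on the Fra-1 control arrays, at least 3.91-fold lower (limma adjusted p = 0.364). Fosl2 did not fall by its brighter probe, which was 6.43 and 7.14 on the arrays labelled Fra-2 knockout and 5.51 and 5.57 on their controls. Its dimmer probe was −3.96 and −3.82 against −2.59 and −2.64. Which of these probes, if any, reads the deleted stretch is not known here, so the Fra-2 arrays are named by their label throughout. All 7 general macrophage markers (Adgre1, Csf1r, Cd68, Itgam, Mertk, Fcgr1 and Cd14) were well above background on every array. Their levels differed between the lines. At a limma adjusted p under 0.05, 5 of the 7 were lower in Fra-1 than in Fra-2 controls and 1 was higher. The median log2 difference was −1.32. Over all features 17.9% were lower and 18.1% higher at that level. Slide 1 held 5 arrays (replicate 1 of each group and Fra-1 control 2) and slide 2 held 3 (Fra-1 knockout 2, labelled Fra-2 knockout 2 and Fra-2 control 2).

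The stretch just upstream of a gene's start is where AP-1, NF-kappaB or STAT6 could act, and RefSeq promoter sequences of build GRCm38.p6 matched 6 of the 10 genes: Ccl3, Ccl6, Ccl8, Ccl9, Ccl17 and Ccl22. In each, the 250 bases before the start were searched on both strands. The letters sought were TGANTCA (a loose AP-1 match, with any base at N), TTCNNNNGAA (a STAT match) and the NF-kappaB consensus. Ccl9 is printed because it held 2 of the 3 matches found and had the smallest p of the 10 genes in the Fra-2 comparison, and Ccl17 because it held the other match. Both run 5′ to 3′ toward the start, with the matches in capitals.
Ccl9, chr11:83578637-83578886, minus strand: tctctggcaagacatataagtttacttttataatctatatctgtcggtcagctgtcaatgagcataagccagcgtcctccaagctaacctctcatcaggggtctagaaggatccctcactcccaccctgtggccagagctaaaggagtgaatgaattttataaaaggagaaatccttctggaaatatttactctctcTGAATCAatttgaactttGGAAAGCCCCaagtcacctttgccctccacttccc
Ccl17, chr8:94810203-94810452, plus strand: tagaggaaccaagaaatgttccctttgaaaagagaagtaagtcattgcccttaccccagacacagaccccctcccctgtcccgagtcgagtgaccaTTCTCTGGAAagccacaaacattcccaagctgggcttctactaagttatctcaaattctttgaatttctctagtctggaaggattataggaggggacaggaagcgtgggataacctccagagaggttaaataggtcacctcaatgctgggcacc
In Ccl9 the capitals mark a loose AP-1 match, with A at N, that begins 53 bases before the start. They also mark an NF-kappaB match that begins 35 bases before the start, and the 2 matches do not overlap. In Ccl17 the capitals mark a STAT match that begins 154 bases before the start. Among 32851 promoters of the same length, 6.75% held the AP-1 match, 5.85% the STAT match and 3.90% the NF-kappaB match. The windows of Ccl3, Ccl6, Ccl8 and Ccl22 held none of these letters. A match describes the sequence and not binding, which the arrays did not measure.

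Between the control arrays of the lines, 8 of the 10 genes differed at a limma adjusted p under 0.05, 4 higher and 4 lower in Fra-1 controls, where 36.0% of all features were called (18.1% higher and 17.9% lower). The higher ones were Ccl2, Ccl7, Ccl8 and Ccl6, and the lower ones Ccl24, Ccl17, Ccl22 and Ccl9. In the knockout comparisons no gene of the family was called. In Fra-1 knockouts 9 of 10 log2 differences were positive, with a median of 0.59 against 0.03 over all features, and 0.0131% of all features were called. Ccl22, 1 of the 9, was not well above background on any Fra-1 line array, and Ccl7, Ccl9 and Ccl17 turned negative without Fra-1 control 1. On the arrays labelled Fra-2 knockout 10 of 10 were negative, with a median of −0.73 against −0.03, and 0.00873% of all features were called. Ccl3 and Ccl4 turned positive there without Fra-2 control 2 or without labelled Fra-2 knockout 1. Over all features 55.2% were positive in the Fra-1 comparison and 54.8% negative in the Fra-2 comparison.

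**Figure D1:**
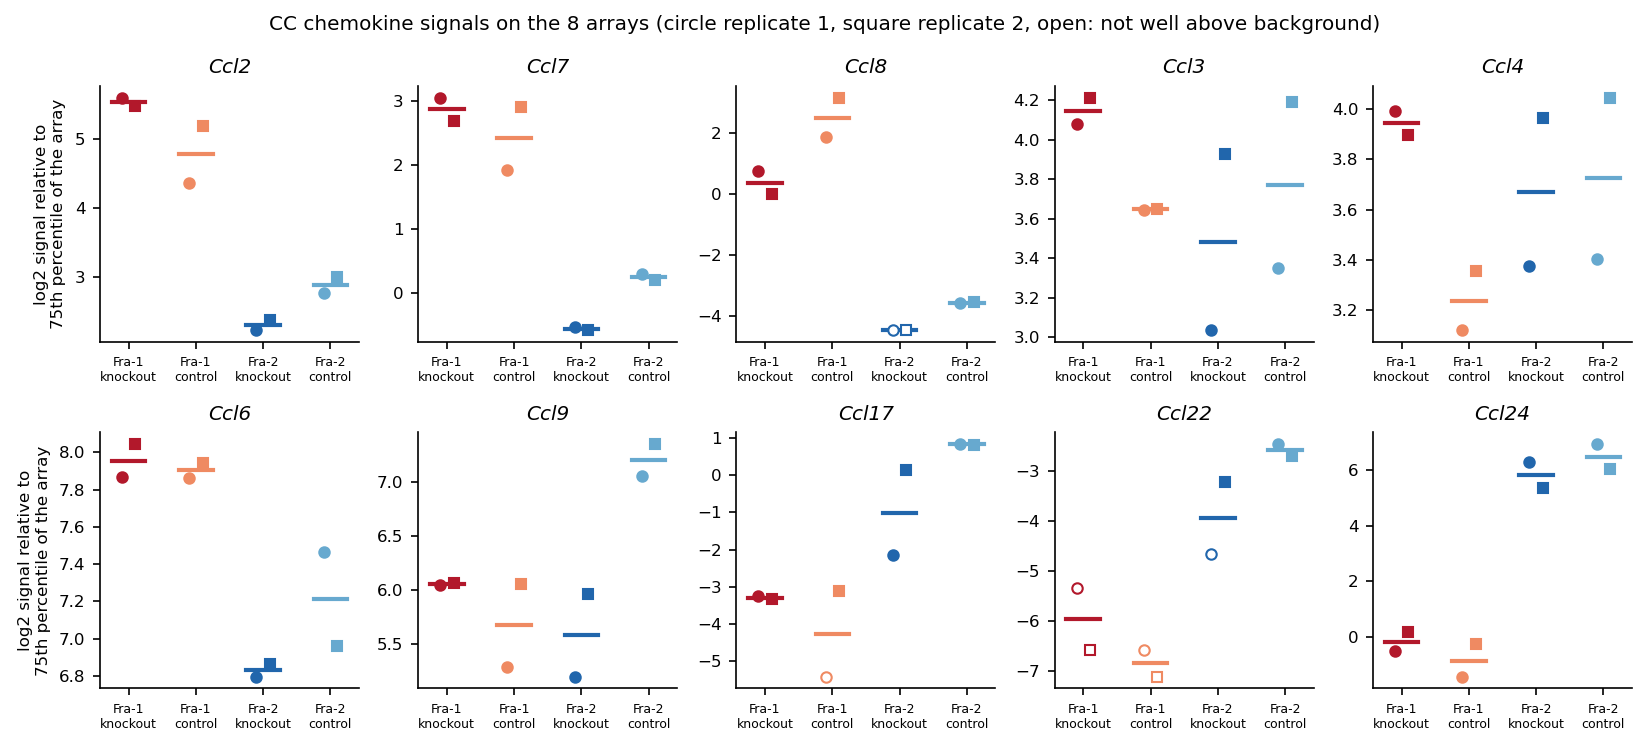
Level of each of the 10 CC chemokines (vertical axes, log2 signal relative to the 75th percentile of the array, each gene on its own scale) on the 8 arrays, by group, with a bar at the group mean; circles are replicate 1, squares replicate 2 and open symbols arrays on which the gene was not well above background. Ccl2, Ccl7, Ccl8 and Ccl6 lie higher on all 4 Fra-1 line arrays than on any Fra-2 line array, Ccl17, Ccl22 and Ccl24 lower, and Ccl3, Ccl4 and Ccl9 overlap.

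Ccl2 and Ccl7 are ligands of Ccr2, the receptor through which monocytes leave the bone marrow and enter inflamed tissue, and they are neighbours on chromosome 11 in the order Ccl2, Ccl7, Ccl11, Ccl12, Ccl8 and Ccl1. Ccl2 was 5.61 and 5.48 on the Fra-1 knockout arrays, against 4.37 and 5.20 on the Fra-1 control arrays. On the arrays labelled Fra-2 knockout it was 2.22 and 2.37, against 2.76 and 2.99 on the Fra-2 control arrays. All 4 groups were separate, highest in Fra-1 knockouts and lowest in those labelled Fra-2 knockout. Its log2 difference was 0.76 in the Fra-1 comparison (SE 0.28, 95% confidence interval 0.09 to 1.44, limma adjusted p = 0.518) and −0.58 in the Fra-2 comparison (SE 0.28, interval −1.26 to 0.10, adjusted p = 0.638). Ccl2 was read by 10 spots on each array, whose standard deviation was 0.06 to 0.09.

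Ccl7, which also binds Ccr1 and Ccr3, had a like pattern. It was 3.05 and 2.69 on the Fra-1 knockout arrays, against 1.92 and 2.90 on their controls, where the groups overlap. The arrays labelled Fra-2 knockout had −0.54 and −0.59, against 0.29 and 0.19 on their controls, where they do not. The Ccl7 differences were 0.46 (SE 0.32, adjusted p = 0.714) and −0.80 (SE 0.32, adjusted p = 0.557). Within the slides the Fra-2 comparison gave −0.83 and −0.78 for Ccl7, and −0.54 and −0.62 for Ccl2. In the Fra-1 comparison Ccl7 rested on Fra-1 control 1, and without it the difference was −0.03; for Ccl2 it was then 0.35. Between the controls both genes were higher in the Fra-1 line, Ccl2 by 1.91 (SE 0.28, 3.75-fold, adjusted p = 0.0038) and Ccl7 by 2.17 (SE 0.32, 4.50-fold, adjusted p = 0.0040). The gap between the lines was 3.25 for Ccl2 and 3.43 for Ccl7 between the knockout groups.

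Ccl8 attracts monocytes and, in mice, T cells through Ccr8. It was 0.75 and 0.01 on the Fra-1 knockout arrays, against 1.86 and 3.17 on the Fra-1 control arrays. It was −4.45 and −4.46 on the arrays labelled Fra-2 knockout, not well above background on either, against −3.57 and −3.54 on the Fra-2 control arrays. The groups were separate in both lines, and Ccl8 was the only one of the 10 genes with a negative difference in both comparisons. In Fra-1 knockouts the difference was −2.14 (SE 0.45, 4.40-fold lower, unadjusted p = 0.0031, limma adjusted p = 0.302), with −1.76 within slide 1 and −2.79 to −1.48 with single arrays left out. In the Fra-2 comparison Ccl8 was at least 1.38-fold lower (adjusted p = 0.647), a bound that a common detection floor over the arrays removes (−0.02). Between controls Ccl8 was 6.07 higher in the Fra-1 line (SE 0.45, 67.3-fold, adjusted p = 4.30e-04).

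Markers of stromal cells were measured beside Ccl8. The summed level of 5 fibroblast markers (Col1a1, Col1a2, Col3a1, Pdgfra and Dcn), in multiples of the array's 75th percentile, was 40.6 to 62.9 in Fra-1 knockouts, against 109 to 156 in Fra-1 controls. It was 2.72 to 3.11 in those labelled Fra-2 knockout, against 1.36 to 3.21 in Fra-2 controls, where Pdgfra was not well above background. All 5 fibroblast markers had a negative difference in the Fra-1 comparison, with a median of −1.38, and 0 were called. The sum of 5 mesothelial markers (Msln, Upk3b, Lrrn4, Krt19 and Wt1) was 4.66 to 6.95 in Fra-1 knockouts, against 9.79 to 14.3 in Fra-1 controls, most of it from Wt1. Of these 5, 4 had a negative difference and 1 a positive one, with a median of −0.29, and 0 were called. The part of these cells in the Ccl8 values was not tested.

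Ccl3, a ligand of Ccr1, and Ccl4 are inflammatory chemokines of activated macrophages and are neighbours on chromosome 11 beside Ccl6 and Ccl9. Ccl3 was 4.08 and 4.21 on the Fra-1 knockout arrays, against 3.65 and 3.65 on their controls. In the Fra-2 line it was 3.04 and 3.93 on the labelled knockout arrays, against 3.35 and 4.19 on their controls. Fra-1 knockouts lay above their controls, while in the Fra-2 line the groups overlapped and both arrays of slide 2 were higher than those of slide 1. The Ccl3 difference was 0.50 in the Fra-1 comparison (SE 0.37, interval −0.41 to 1.41, adjusted p = 0.727) and 0.19 with a slide term, and it was −0.29 in the Fra-2 comparison (SE 0.37, interval −1.20 to 0.62, adjusted p = 0.933). Within the slides the Fra-2 difference was −0.31 and −0.26.

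Ccl4 was 3.99 and 3.90 in Fra-1 knockouts, against 3.12 and 3.36 in Fra-1 controls. In the Fra-2 line it was 3.38 and 3.96 on the labelled knockout arrays, against 3.40 and 4.05 on their controls. Its Fra-1 difference was 0.71 (SE 0.28, interval 0.02 to 1.40, unadjusted p = 0.0459, adjusted p = 0.560) and its Fra-2 difference −0.05 (SE 0.28, interval −0.74 to 0.64, adjusted p = 0.987). Neither gene was called between the controls of the lines, with −0.12 for Ccl3 (interval −1.03 to 0.79, adjusted p = 0.823) and −0.49 for Ccl4 (interval −1.18 to 0.20, adjusted p = 0.227). Over the 8 arrays Ccl4 spanned 0.93 and Ccl3 1.18, the narrowest ranges of the 10 genes.

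Ccl6 and Ccl9 are mouse chemokines of the Ccr1 group that macrophages make without stimulation. Ccl6 was 7.86 and 8.04 on the Fra-1 knockout arrays, against 7.86 and 7.94 on the Fra-1 control arrays, which overlap. On the arrays labelled Fra-2 knockout it was 6.80 and 6.87, against 7.46 and 6.96 on the Fra-2 control arrays, which do not. The differences were 0.05 (SE 0.19, interval −0.41 to 0.51, adjusted p = 0.960) and −0.38 (SE 0.19, interval −0.84 to 0.08, adjusted p = 0.644). Within the slides the Ccl6 Fra-2 difference was −0.67 and −0.10, and it was −0.13 without Fra-2 control 1 and −0.63 without Fra-2 control 2. Between controls Ccl6 was 0.69 higher in the Fra-1 line (SE 0.19, 1.62-fold, limma adjusted p = 0.0329). That call ended with a slide term (0.65, adjusted p = 0.0750), and with all 4 arrays of each line the difference was 0.91 (adjusted p = 0.0022).

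Ccl9, which osteoclasts also make, had the smallest p of the 10 genes in the Fra-2 comparison. It was 5.20 and 5.97 on the arrays labelled Fra-2 knockout, against 7.06 and 7.35 on the Fra-2 control arrays. Both control arrays lay above both labelled knockouts. The Ccl9 difference was −1.63 (SE 0.34, 3.09-fold lower, interval −2.46 to −0.79, unadjusted p = 0.0031), with −1.86 and −1.39 within the slides, and it was not called (limma adjusted p = 0.235, and 0.119 to 0.626 over the alternatives). In the Fra-1 line it was 6.05 and 6.07 in knockouts, against 5.29 and 6.06 in controls (0.38, adjusted p = 0.774; −0.00 without Fra-1 control 1). Between controls Ccl9 was lower in the Fra-1 line (−1.53, 2.89-fold, adjusted p = 0.0171), whereas between the knockout groups it was 0.48 higher in the Fra-1 line. The call between controls was lost when Fra-1 control 1 was left out (−1.15, adjusted p = 0.0732), when Fra-2 control 2 was left out (−1.39, adjusted p = 0.0807) and over all 4 arrays of each line (−0.53, adjusted p = 0.112).

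**Figure D2:**
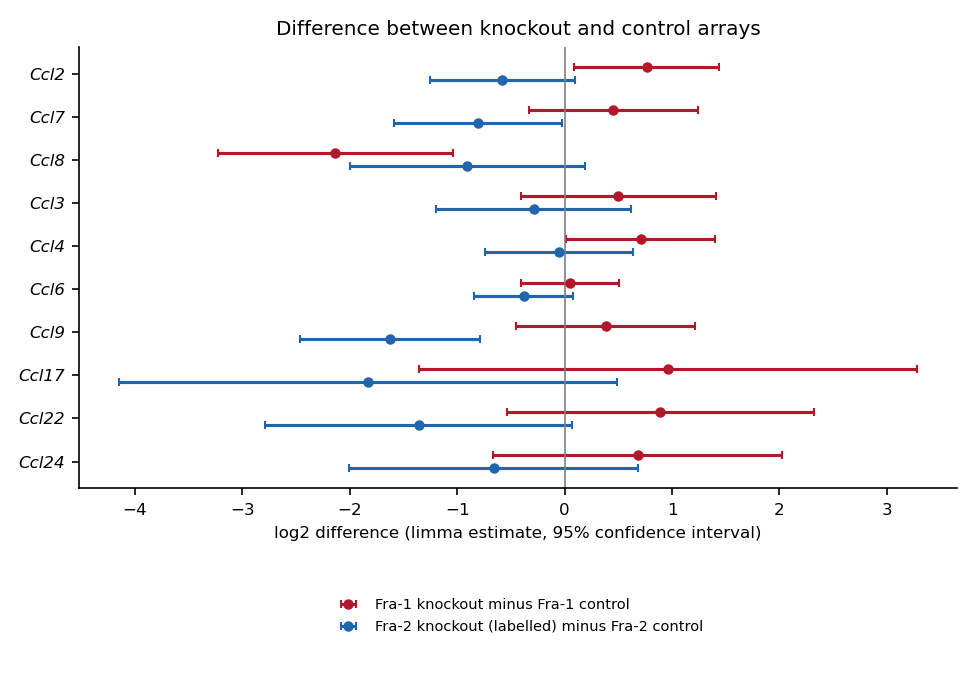
Log2 difference between knockout and control arrays for the 10 CC chemokines (horizontal axis; points are limma estimates and bars 95% confidence intervals), red for the Fra-1 and blue for the Fra-2 comparison. The red points are positive for every gene but Ccl8 (−2.14), and the blue points are all negative, from −0.05 for Ccl4 to −1.83 for Ccl17.

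Ccl17 and Ccl22 are the ligands of Ccr4, made by dendritic cells and by macrophages given interleukin 4, and they lie on chromosome 8 with Cx3cl1 between them. Ccl17 was −3.26 and −3.32 on the Fra-1 knockout arrays, against −5.41 (not well above background) and −3.10 on their controls. On the arrays labelled Fra-2 knockout it was −2.15 and 0.14, against 0.83 and 0.81 on their controls. The Fra-1 groups overlapped and the Fra-2 groups did not, but the labelled knockouts lay 2.30 apart. The Ccl17 difference was 0.96 (SE 0.95, adjusted p = 0.799) in the Fra-1 comparison, −0.19 without Fra-1 control 1 and 0.05 with a common floor. It was −1.83 (SE 0.95, 3.55-fold lower, adjusted p = 0.671) in the Fra-2 comparison, with −2.98 within slide 1 and −0.67 within slide 2.

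Ccl22 was −5.33 and −6.58 in Fra-1 knockouts, against −6.58 and −7.11 in Fra-1 controls, and was not well above background on any array of that line, so its fitted difference of 0.89 (adjusted p = 0.693) compares background signals. The arrays labelled Fra-2 knockout had −4.65 (not well above background) and −3.21, against −2.46 and −2.69 on their controls. As for Ccl17, labelled Fra-2 knockout 1 was the lower and the more distant from its control. The Fra-2 difference of Ccl22 was −1.36 (SE 0.58, adjusted p = 0.590), with −2.19 and −0.52 within the slides and −0.82 with a common floor. Labelled Fra-2 knockout 1 also had the smallest share of spots above background, and the part of this in the low values was not tested. Between controls Ccl17 was lower in the Fra-1 line (−5.08, SE 0.95, adjusted p = 0.0093), where 1 of the 2 Fra-1 arrays measured it above background. Ccl22 was at least 5.24-fold lower there (adjusted p = 0.0031), a bound that a common floor does not keep. Under that floor its log2 difference was −1.002 (adjusted p = 0.0069), a smaller gap.

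Markers of dendritic cells, another source of these ligands, were measured beside them. The summed level of the 5 of 6 listed markers that passed the filter (Flt3, Zbtb46, Cd209a, Ccr7 and Itgax) was 14.1 to 18.2 on the arrays labelled Fra-2 knockout, against 30.0 to 33.8 on Fra-2 controls. Itgax was the largest part of each of these sums (2.77 and 3.63 on the labelled knockouts, against 4.06 and 4.81 on controls). All 5 had negative differences there, from −1.24 for Itgax to −0.07 for Zbtb46, with a median of −0.42, and 0 were called. In the Fra-1 line the sum was 101 to 119 in knockouts, against 109 to 114 in controls, most of it from Itgax. Of the 5, 4 had positive differences in Fra-1 knockouts, with a median of 0.64, and 0 were called. Between controls 3 were called lower in the Fra-1 line and 1 higher (Itgax), with a median of −1.23. Over all features 17.9% were called lower there and 18.1% higher. The part of dendritic cells in Ccl17 and Ccl22 was not tested.

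**Figure D3:**
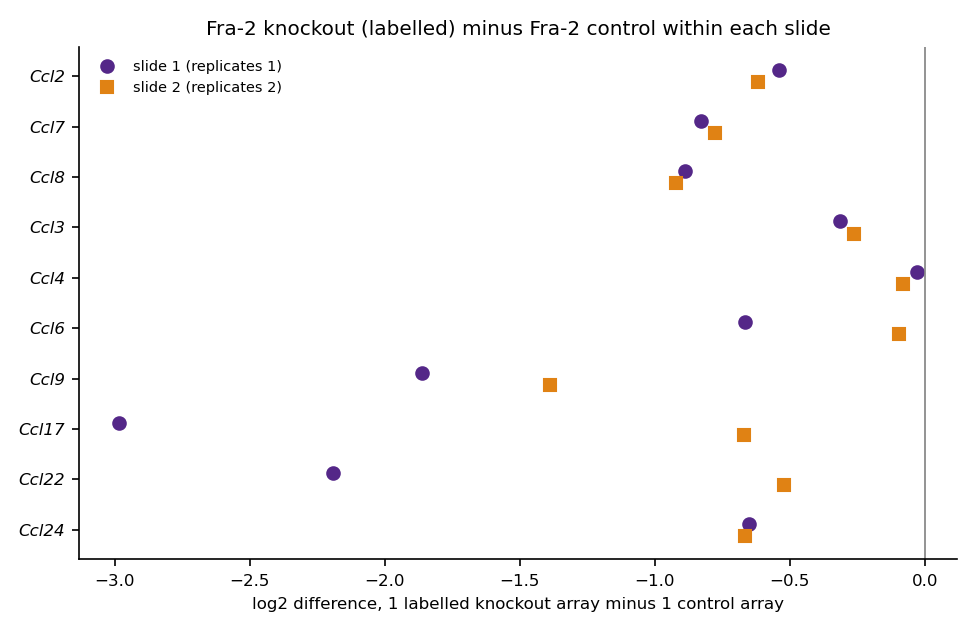
Log2 difference of each CC chemokine between 1 array labelled Fra-2 knockout and 1 Fra-2 control array on the same slide (horizontal axis; circles slide 1, squares slide 2). Both slides give a negative value for all 10 genes, and they lie furthest apart for Ccl17 (−2.98 and −0.67) and Ccl22 (−2.19 and −0.52).

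Ccl24 is a ligand of Ccr3, the receptor of eosinophils. It was −0.50 and 0.19 on the Fra-1 knockout arrays, against −1.42 and −0.26 on the Fra-1 control arrays. It was 6.27 and 5.35 on the arrays labelled Fra-2 knockout, against 6.92 and 6.01 on the Fra-2 control arrays. Knockouts and controls overlapped in both lines, and replicate 1 was the higher in both Fra-2 line groups. The differences were 0.68 (SE 0.55, adjusted p = 0.750) and −0.66 (SE 0.55, adjusted p = 0.852), the second with −0.65 and −0.67 within the slides. With single arrays left out the Fra-1 difference ran from 0.10 (without Fra-1 control 1) to 1.26 (without Fra-1 control 2), and the Fra-2 difference from −1.12 (without labelled Fra-2 knockout 1) to −0.20 (without labelled Fra-2 knockout 2 or Fra-2 control 1). Between controls Ccl24 was lower in the Fra-1 line (−7.30, SE 0.55, 158-fold, limma adjusted p = 4.55e-04), the widest gap of the 10 genes, and between the knockout groups the gap was −5.96. Of 5 eosinophil markers, Siglecf, Ear1 and Ccr3 passed the filter and Epx and Prg2 did not. The sum of the 3 that passed was 6.76 to 6.81 in Fra-1 controls, against 1.08 to 4.04 in Fra-2 controls. Most of the Fra-1 control sum came from Siglecf (2.34 and 2.11). Between controls 1 of the 3 was called, higher in the Fra-1 line, and Ccr3 had −0.06. The part of eosinophils in the Ccl24 values was not tested.

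Over the 4 arrays of each line, 7 of the 10 genes did not overlap between the lines, 4 higher and 3 lower in the Fra-1 line, where 51.1% of all features did not overlap (26.4% higher and 24.7% lower). In the fit over those arrays 7 were called, 4 higher and 3 lower, where 53.8% of features were called (27.4% higher and 26.4% lower). Markers of large resident peritoneal macrophages differed between the lines as well. Their sum over Gata6, Timd4, Icam2, Alox15, Cd5l, Prg4 and Selp was 98.6 to 99.8 in Fra-1 controls, against 158 to 276 in Fra-2 controls. Most of the Fra-1 control sum came from Cd5l (6.43 and 6.44, against 4.00 and 1.23 in Fra-2 controls), the 1 marker with a positive difference. Between controls 5 of 7 were called lower and 1 higher, with a median of −6.69, against 17.9% and 18.1% of all features. Timd4 was at least 822-fold lower in Fra-1 controls. The part of these cells in the chemokine values was not tested.

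**Figure D4:**
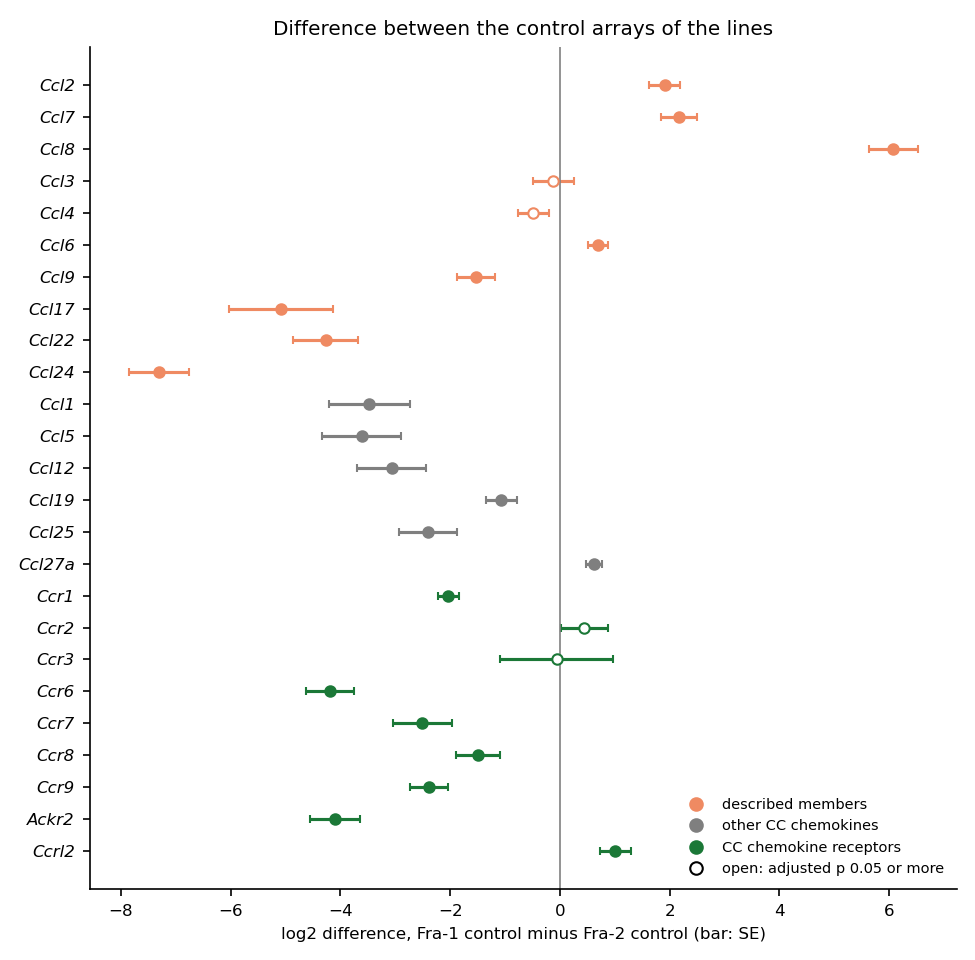
Log2 difference between Fra-1 control and Fra-2 control arrays (horizontal axis; bars are SE) for the 10 CC chemokines, 6 other CC chemokines and 9 CC chemokine receptors. Filled points have an adjusted p under 0.05. The 10 CC chemokines run from −7.30 for Ccl24 to 6.07 for Ccl8, and most receptors lie left of 0.

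The difference between the knockout effects of the lines was tested directly, as the Fra-1 effect minus the Fra-2 effect, which share no arrays. It was called for 0 of the 10 genes, where 0.00436% of all features were called. At an unadjusted p under 0.05 there were 4, all positive, where 5.40% of features were positive at that level. They were Ccl9 (2.01, SE 0.48, adjusted p = 0.319), Ccl2 (1.34, SE 0.39, adjusted p = 0.389), Ccl7 (1.26, SE 0.45, adjusted p = 0.474) and Ccl22 (2.25, SE 0.83, adjusted p = 0.483, and 0.82 with a common floor). Ccl17 had 2.79 with the widest error (SE 1.34, adjusted p = 0.573, and 1.87 with a common floor), and Ccl8 the only negative value (−1.23, SE 0.63, adjusted p = 0.591, and −2.11 with a common floor). The remaining 4, Ccl3, Ccl4, Ccl6 and Ccl24, had 0.43 to 1.34. The median was 1.30, against 0.05 over all features.

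The knockout comparisons can also be read by counts. At an unadjusted p under 0.05, 2 of the 10 genes were higher in Fra-1 knockouts (Ccl2 and Ccl4), where 3.4% of all features were, and 1 was lower (Ccl8), where 5.43% were. In the Fra-2 comparison 2 were lower (Ccl7 and Ccl9), where 5.81% were, and 0 higher. Groups did not overlap for 3 genes higher and 1 lower in Fra-1 knockouts, where 27.6% and 18.7% of features were so placed. In the Fra-2 comparison 7 were lower without overlap, where 20.1% were. Among these 7, Ccl8 was not well above background on either labelled Fra-2 knockout array, and Ccl22 not on labelled Fra-2 knockout 1. The genes counted here were chosen with earlier results of these data known. The Fra-2 difference was negative for all 10 genes within slide 1 and within slide 2, with Ccl4 at −0.03 and −0.08. Each of these values sets 1 array against 1 of the same arrays as the fit. The share of all features negative on both slides is not given here.

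Of 11 other CC chemokines, 10 were on the array and 6 passed the filter (Ccl1, Ccl5, Ccl12, Ccl19, Ccl25 and Ccl27a). None was called in a knockout comparison, with medians of 0.88 in Fra-1 knockouts and −0.71 in the Fra-2 comparison. Ccl1, a ligand of Ccr8, had 1.93 (SE 0.74, adjusted p = 0.539) in Fra-1 knockouts and −1.29 (adjusted p = 0.713) on the arrays labelled Fra-2 knockout. Ccl1 and Ccl12 were each well above background on only 3 arrays. Fra-1 controls had −7.05 and −6.49 for Ccl1 and −6.07 and −5.67 for Ccl12, below the lowest signal well above background there. Labelled Fra-2 knockout 1 had −5.64 for Ccl1, also below that of its array. The Fra-1 differences of both genes, the median of 0.88 and the −1.29 therefore include background signals. Ccl19, a ligand of Ccr7, had 0.67 (adjusted p = 0.574) in Fra-1 knockouts, and Ccl25, the ligand of Ccr9, −1.13 (adjusted p = 0.626) in the Fra-2 comparison. For the difference of the effects Ccl1 had 3.22 (adjusted p = 0.428) and Ccl12, a mouse ligand of Ccr2, 2.30 (adjusted p = 0.508). Both values include the same background signals. Between controls all 6 were called, 1 higher and 5 lower in the Fra-1 line, with a median of −2.73, where 18.1% of all features were called higher and 17.9% lower. Ccl5, a ligand of Ccr1 and Ccr3, had −3.61 (adjusted p = 0.0116) and Ccl25 −2.40 (adjusted p = 0.0160). There Ccl1 was at least 3.19-fold lower (adjusted p = 0.0146) and Ccl12 at least 4.45-fold lower (adjusted p = 0.0129). Fra-2 controls had −3.68 and −2.90 for Ccl1 and −3.43 and −2.19 for Ccl12. A common floor over the arrays lies at −3.58 and keeps neither bound.

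Of 13 receptors of CC chemokines, 10 passed the filter, and none was called in a knockout comparison. Their medians were 0.49 in Fra-1 knockouts and −0.22 in the Fra-2 comparison. In Fra-1 knockouts the smallest p belonged to Ccr1 (0.52, SE 0.19, adjusted p = 0.530) and Ccr7 (1.25, SE 0.54, adjusted p = 0.588). In the Fra-2 comparison Ackr2, a decoy receptor that removes inflammatory CC chemokines, had −0.49 (adjusted p = 0.876). For the difference of the effects Ccr7 had 1.67 (adjusted p = 0.562) and Ackr2 1.28 (adjusted p = 0.583). Between controls 7 were called lower in the Fra-1 line and 1 higher, with a median of −1.76, against 17.9% and 18.1% of all features. The largest were Ccr6 (−4.18, adjusted p = 0.0013), Ackr2 (−4.10, adjusted p = 0.0015), Ccr7 (−2.51, adjusted p = 0.0153) and Ccr9 (−2.38, adjusted p = 0.0041). Ccr2, the receptor of Ccl2 and Ccl7, was not called there (0.44), nor was Ccr3, the receptor of Ccl24 (−0.06); both were named after their values were seen.

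Genes of the interleukin 4 and STAT6 response, to which Ccl17, Ccl22 and Ccl24 belong by their known control, were listed apart, and all 12 passed the filter. No member was called in a knockout comparison, and the medians were −0.11 in Fra-1 knockouts and 0.08 in the Fra-2 comparison. Chil3, a chitinase-like lectin, had 3.11 (SE 0.48, adjusted p = 0.138) on the arrays labelled Fra-2 knockout, and Mrc1, the mannose receptor, −0.69 (adjusted p = 0.206). In Fra-1 knockouts Irf4, a transcription factor, had 0.45 (adjusted p = 0.449) and Arg1, which splits arginine, 2.31 (adjusted p = 0.611). Arg1 was 6.03 and 5.48 there, against 1.72 and 5.17 on the Fra-1 controls, so its difference rested largely on Fra-1 control 1. For the difference of the effects Chil3 had −3.69 (adjusted p = 0.234) and Arg1 4.85 (adjusted p = 0.415), which includes the same Fra-1 control 1. Between controls 3 were called higher in the Fra-1 line and 6 lower, against 18.1% and 17.9% of all features. Chil3 was 6.56 higher (adjusted p = 4.27e-04) and Pparg, a nuclear receptor, 5.36 higher (adjusted p = 1.29e-04), while Cish, a cytokine signal inhibitor, had −3.60 (adjusted p = 0.0040) and Il4ra, a chain of the interleukin 4 receptor, −2.81 (adjusted p = 0.0150).

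Of 13 inflammatory genes under NF-kappaB and MAP kinases, all passed the filter and none was called in a knockout comparison. Their medians were 0.04 in Fra-1 knockouts and −0.00 in the Fra-2 comparison, near those of all features. Il6, an inflammatory cytokine, was at least 2.54-fold lower in Fra-1 knockouts (adjusted p = 0.531), where neither array was well above background. It had 1.71 (adjusted p = 0.600) on the arrays labelled Fra-2 knockout. For the difference of the effects Il6 had −3.71 (adjusted p = 0.383), a value that includes the background signals of the Fra-1 knockouts. Dusp1, a phosphatase of MAP kinases, had 0.86 in the Fra-2 comparison (adjusted p = 0.352) and −0.59 for the difference (adjusted p = 0.619), and Cxcl10, an interferon-induced chemokine, −0.57 in Fra-1 knockouts (adjusted p = 0.627). Between controls 9 were called lower in the Fra-1 line and 0 higher, with a median of −2.17, against 17.9% and 18.1% of all features. The largest were Il1b, another cytokine (−9.81, adjusted p = 2.67e-04), Il6 (−5.79, adjusted p = 0.0026), Cxcl2, which attracts neutrophils (−5.10, adjusted p = 8.19e-04), and Ier3, an early response gene (−4.26, adjusted p = 4.48e-04). Ccl2 and Ccl7, which inflammatory signals are known to induce, were higher on the same arrays.

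Likeness of pattern was measured as the root mean square difference between centred log2 values over the 8 arrays, as a description that the gap between the lines dominates. Within the family the closest pair was Ccl2 and Ccl7 (0.21), followed by Ccl3 and Ccl4 (0.25), while Ccl17 and Ccl22 came at 0.86. Among 13639 named genes, Nes (0.14), Acvrl1 (0.17) and Car9 (0.18) were closest to Ccl2, and Kcnn4 (0.21), Ccl2 itself and Zranb3 (0.22) to Ccl7. Dcstamp (0.15), Gfra2 (0.25) and Nxph3 (0.26) were closest to Ccl9. For Ccl24 they were Marco (0.46), Afap1l1 (0.55) and Adgre4 (0.57). For Ccl3 they were Scimp (0.15), Cyp2w1 (0.16) and Meig1 (0.17), and for Ccl4 Jmjd6 (0.11), Cpt1b (0.17) and Scimp (0.18). Those of Ccl6 were Mpv17l, Selenom and F9, at 0.11 each. Like genes had to pass only the general filter on dim probes, so some are near background. Cyp2w1, for example, ran from −4.83 to −3.92 over the arrays.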

How the data were processed

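RNA of 8 samples was hybridised to single-colour Agilent arrays. The deposited scanner tables hold background-subtracted Cy3 intensities on a linear scale, made with Feature Extraction 11.5.1.1, and 0 or 1 flags for background, outliers and saturation, scored per the file headers, which name build mm9. The deposited series matrix holds log2 values whose medians per array ran from −0.16 to 0.25. Set against the scanner values, differences between arrays matched in scale and direction after centring each probe over the arrays, so none of these stays unknown.

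From the intensities, control spots and flagged outliers were left out, spots of a probe were averaged, and each signal was divided by the 75th percentile of its array over 55681 non-control probes and set on the log2 scale. A probe was kept when well above background on all arrays of at least 1 group. Probes were named by accession through RefSeq (GRCm38.p6, names and neighbours only), 28020 of them for 21150 genes, and the brightest probe on average stood for its gene. A model with 1 mean per group was fitted to the 8 arrays in limma 3.58.1 under R 4.3.3 (4 residual and 1.99 prior degrees of freedom), with Benjamini-Hochberg adjustment over 22910 features per comparison and calls under 0.05. Tables were made with pandas 2.3.3 and numpy 2.4.6, and figures with matplotlib 3.10.9, in Python 3.11.15. The code was tested on simulated data.

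A bound ("at least") sets the bright group against, per array, the higher of the lowest signal well above background and the gene's own signal. The number of arrays limits precision, and no source used here says more than that samples came from separately counted mice. The 10 members and all gene lists were chosen with earlier results of these data known. Besides the members, Fosl1 and Fosl2, the text names per list and comparison up to 4 called genes with the largest difference, or up to 2 with the smallest p where none was called; like genes are the 3 nearest. Alternatives were a trended prior, a slide term, the mean of probes, fits of only those groups compared, other filters, the series matrix, normexp (offset 50) on median signals, quantile normalization, all 4 arrays of a line, leaving out each array and, chosen after seeing the data, a common floor. The values of 1 receptor of the lists are not reported here, though it is among the counts.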

Additional observations from a re-analysis of the deposited data

Results flagged for a closer look

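Ccl2 was higher on both Fra-1 knockout arrays than on either Fra-1 control array and lower on both arrays labelled Fra-2 knockout than on either Fra-2 control array. The Fra-1 effect minus the Fra-2 effect was 1.34 on the log2 scale (SE 0.39, unadjusted p = 0.0140), which limma did not call after adjustment over all features (adjusted p = 0.389). It was 1.37 within slide 1 and 0.92 to 1.76 with single arrays left out. Ccl2 was flagged for these opposite directions on the same arrays, so the values describe the pattern and are no separate support for it. Over all features 27.6% were higher without overlap in Fra-1 knockouts and 20.1% lower without overlap in the Fra-2 comparison. The share with both is not given here. Ccl9 had a smaller unadjusted limma p for the same difference (0.0059).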

How the results depend on the processing

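The sample numbers in the labels are not shared between groups, so no fit had them as a block. Slides hold 1 labelled knockout and 1 control array each in the Fra-2 line, and within-slide values are given beside the results; a slide term called 0 members in the knockout comparisons. In the comparison of control arrays, 5 of the 10 members were called with a filter on all 8 arrays, in which 7 were tested, and 6 to 8 with single arrays left out. No member was called in the knockout comparisons or their difference under any alternative run. With single arrays left out, the Fra-1 difference of Ccl7 ran from −0.033 to 0.94, that of Ccl9 from −0.0030 to 0.77, that of Ccl17 from −0.19 to 2.12 (each lowest without Fra-1 control 1) and that of Ccl6 from −0.039 to 0.14 (lowest without Fra-1 knockout 2). The Fra-2 difference of Ccl3 ran from −0.73 to 0.16 and that of Ccl4 from −0.38 to 0.27, positive without Fra-2 control 2 (0.13 and 0.27) and without labelled Fra-2 knockout 1 (0.16 and 0.24). Between controls Ccl3 ran from −0.54 to 0.30 (highest without Fra-2 control 2), and was 0.19 with a slide term and 0.27 over all 4 arrays of each line. Ccl6 between controls was also not called without the filter (adjusted p = 0.0788), with only the groups compared (0.0852), or without Fra-2 control 2 (0.112), Fra-1 control 1 (0.0931), Fra-1 control 2 (0.123) or either Fra-1 knockout (0.0593). With a common floor the Fra-1 difference of Ccl22 was 0. Over all features, calls ranged from 0 to 21 in the Fra-1 comparison (3 as reported), 0 to 57 in the Fra-2 comparison (2), 0 to 27 for the difference (1) and 5590 to 8942 between controls (8252), where all 4 arrays of each line, knockouts included, gave 12315. The causes of these changes were not tested, except that the filter on all arrays leaves fewer members.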

Other observations

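The other marker lists were measured as summed levels in multiples of the array's 75th percentile. B cell markers (3 of 4 passed) summed to 0.53 to 1.59 in Fra-1 controls, against 19.2 to 38.5 in Fra-2 controls. Mast cell markers (5 of 5) summed to 2.12 to 2.52, against 41.3 to 125. T cell markers (2 of 4) summed to 1.19 to 1.49, against 2.95 to 3.10. Neutrophil markers (4 of 5) summed to 28.2 to 29.4 on the arrays labelled Fra-2 knockout, against 14.4 to 19.8 on Fra-2 controls, and to 20.7 to 27.4 in Fra-1 knockouts, against 14.4 to 18.3 in Fra-1 controls. S100a8 made up most of the Fra-2 sums, and Retnlg had a difference of −1.06 there, against the direction of the sum. Markers of monocytes and small peritoneal macrophages (4 of 5) summed to 12.5 to 15.2 on the arrays labelled Fra-2 knockout, against 24.2 to 72.2 on Fra-2 controls. Retnla made up most of these sums (−1.96, adjusted p = 0.586), while Irf4 had a difference of 0.30 without overlap between the groups, and 0 of the 4 were called. The part of these cells in the chemokine values was not tested. Summed over the 10 CC chemokines, the level was 249 to 258 on the arrays labelled Fra-2 knockout, against 399 to 462 on Fra-2 controls, and 392 to 418 in Fra-1 knockouts, against 322 to 390 in Fra-1 controls, sums that Ccl6 and other bright genes dominate.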
